A study of Mus musculus with 30 samples.

Results

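CXC chemokines are small secreted signalling proteins named for the spacing of their first cysteines. The 9 genes described here are Cxcl1, Cxcl2, Cxcl3, Cxcl5, Cxcl9, Cxcl10, Cxcl13, Cxcl14 and Cxcl16, chosen by name from the 43629 genes counted in the series. They were measured in bone callus, the tissue that bridges a healing fracture, of male C57BL/6J mice that were 20 weeks old. DIO mice carried diet-induced obesity from a high-fat diet, and Lean mice received a lean diet. All mice had an open mid-diaphyseal osteotomy of the right tibia stabilised with an intramedullary nail, so that both diets share the fracture and the implant and no unfractured bone was compared. Calli, freed of soft tissue, were taken on days 3, 5, 7 and 10 after fracture (d3 to d10) in both diets, and on d14 and d21 in DIO mice. Each of the 30 libraries came from 1 mouse, and each diet and day had 3 mice. Lean d14 and d21 calli are not analysed here.

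The family falls into groups with known roles. Cxcl1, Cxcl2, Cxcl3 and Cxcl5 are ligands of CXCR2 and attract neutrophils, the first leukocytes at a wound, and their genes are induced through NF-kB by cytokines such as IL-1 and TNF. Cxcl9 and Cxcl10 bind CXCR3 on activated T cells and NK cells and are induced by interferons. Cxcl13 attracts B cells through CXCR5, Cxcl14 is made by epithelial and stromal cells, and Cxcl16 is made as a membrane-bound protein that ADAM10 and ADAM17 release and that binds CXCR6. In a fracture, inflammatory cells enter first and are followed by cartilage and then bone.

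Promoters are shown for the members of the inducible groups that the sequence table held, which are known to be switched on through sites near their start. Cxcl5 and Cxcl16 had no entry. The sequences are from RefSeq on GRCm38.p6, written 5′ to 3′ on the strand of the gene, and capitals mark matches of the motifs named here. For the neutrophil-attracting genes the last 120 bases before the RefSeq start are given: Cxcl1 at chr5:90891125-90891244 (+), Cxcl2 at chr5:90903779-90903898 (+) and Cxcl3 at chr5:90785981-90786100 (+).
Cxcl1: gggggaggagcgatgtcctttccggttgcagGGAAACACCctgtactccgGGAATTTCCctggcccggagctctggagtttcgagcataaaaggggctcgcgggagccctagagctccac
Cxcl2: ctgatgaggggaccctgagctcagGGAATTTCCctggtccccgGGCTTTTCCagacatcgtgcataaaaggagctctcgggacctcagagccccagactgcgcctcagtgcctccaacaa
Cxcl3: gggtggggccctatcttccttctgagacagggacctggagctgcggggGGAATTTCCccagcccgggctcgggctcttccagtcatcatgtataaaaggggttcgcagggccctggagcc
For the interferon-induced genes the full 250 bases before the start are given: Cxcl9 at chr5:92328080-92328329 (−) and Cxcl10 at chr5:92348890-92349139 (−).
Cxcl9: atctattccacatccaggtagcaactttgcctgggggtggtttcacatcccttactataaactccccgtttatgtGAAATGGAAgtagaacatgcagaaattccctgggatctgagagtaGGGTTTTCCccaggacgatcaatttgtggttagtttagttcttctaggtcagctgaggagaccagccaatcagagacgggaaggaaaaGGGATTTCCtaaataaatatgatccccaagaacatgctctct
Cxcl10: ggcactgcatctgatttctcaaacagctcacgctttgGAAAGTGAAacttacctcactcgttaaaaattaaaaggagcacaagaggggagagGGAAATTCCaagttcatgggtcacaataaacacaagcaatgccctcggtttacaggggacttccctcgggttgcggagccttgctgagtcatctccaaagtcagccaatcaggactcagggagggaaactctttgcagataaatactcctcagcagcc
Each motif was searched on both strands in the 250 bases before the start of 27025 genes, and 7 of the 9 members had such a window. The letters GGNNTTTCC, of the kind that NF-kB binds, matched in 5.62% of all genes and in 5 of the 7 members, Cxcl1, Cxcl2, Cxcl3, Cxcl9 and Cxcl10. The narrower form GGAATTTCC, a part of the first pattern, was found in 0.344% of all genes and in 4 members, in Cxcl1, Cxcl2 and Cxcl3 on the strand of the gene and in Cxcl10 on the opposite strand. It starts 70, 96 and 72 bases before the start of Cxcl1, Cxcl2 and Cxcl3 and 158 bases before that of Cxcl10. The letters GAAANNGAA, of the kind bound by interferon regulatory factors, matched in 8.18% of all genes and in 3 members, Cxcl9 (GAAATGGAA), Cxcl10 (GAAAGTGAA) and Cxcl14 (GAAACAGAA), and in none of Cxcl1, Cxcl2 and Cxcl3. A further pattern, TTCNNNGAA, matched in 8.13% of all genes and in Cxcl14 alone of the 7 members, so in neither Cxcl9 nor Cxcl10. These matches describe letters in a window and not binding.

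Depth ran from 13247122 to 26365620 counts per library, with a median of 16854427. Levels are given as CPM, counts scaled to library size, with the sizes adjusted by TMM factors. A count of 3, taken as the limit of detection, corresponded to between 0.108 and 0.230 CPM. Cartilage and bone markers that define callus, such as Col2a1 and Ibsp, were detected in every library. A single library stood apart, Lean d10 mouse 1, with summed chondrocyte markers of 64917 CPM against 13143 and 10570 CPM in the other Lean d10 mice, and with T and NK cell markers of 10.03 CPM against 27.03 and 38.9 CPM. Because each library is bulk tissue, fewer cells of a type and less RNA per cell cannot be told apart.

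Levels between genes were compared per length, as CPM per kilobase of exon. Cxcl14 and Cxcl16 were the most abundant members, with medians over the 30 libraries of 32.4 (range 14.5 to 103) and 19.9 (7.44 to 38.5). Cxcl5, Cxcl10 and Cxcl9 followed at 1.87, 1.51 and 1.46, and Cxcl1, Cxcl2 and Cxcl3 had medians of 0.71, 0.70 and 0.26. Cxcl5 had the widest absolute range of these 6, from 0.04 to 38.4 CPM per kilobase. Cxcl13 was at the limit of detection, at a median of 0.08, and was detected in 10 of 30 libraries. On chromosome 5 of GRCm38 lie 7 of the members: Cxcl5 at chr5:90759360-90761624, Cxcl3 at chr5:90786103-90789600, Cxcl1 at chr5:90891241-90893115 and Cxcl2 at chr5:90903871-90905938 on the plus strand, Cxcl9 at chr5:92321347-92328079 and Cxcl10 at chr5:92346638-92348889 on the minus strand, and Cxcl13 at chr5:95956951-95961068 on the plus strand. Cxcl14 lies at chr13:56288643-56296551 and Cxcl16 at chr11:70453983-70459984, both on the minus strand. The intervals are whole genes, exons and introns, in GENCODE M21.

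**Figure D1:**
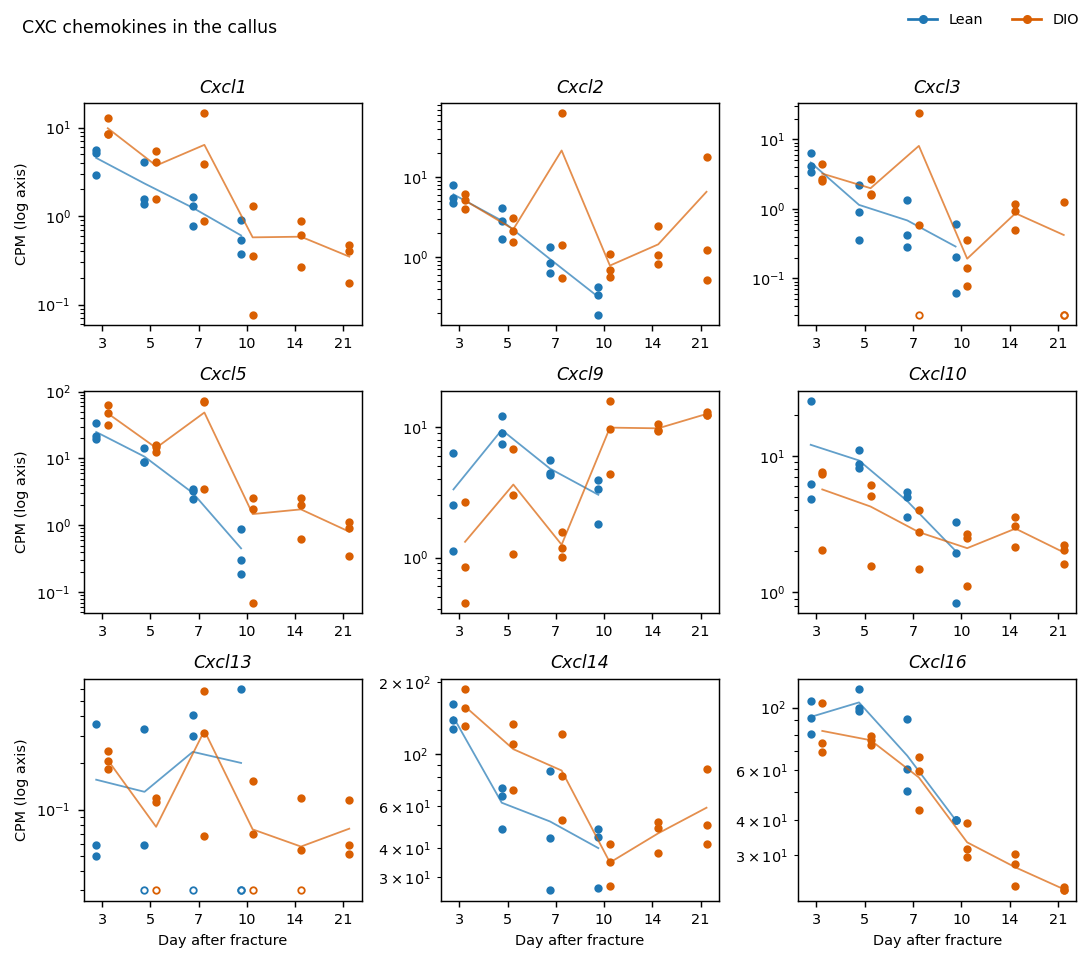
Level of each of the 9 members by day after fracture, in CPM on a log axis, with a point per mouse and a line through the means of Lean and of DIO mice, and with open symbols at the bottom for libraries under 0.03 CPM. Cxcl5 fell by d10 in both diets, Cxcl9 of DIO mice lay between 4.34 and 15.7 CPM from d10 on, and DIO d7 mouse 1 stands above the other mice of its group for Cxcl1, Cxcl2 and Cxcl3.

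In Lean callus Cxcl5 and Cxcl2 fell between d3 and d7, and the means of all neutrophil-attracting members were highest on d3. Cxcl5 measured 33.6, 21.5 and 19.6 CPM in the 3 mice on d3, 14.4, 8.84 and 8.73 CPM on d5, 3.22, 2.45 and 3.49 CPM on d7, and 0.188, 0.872 and 0.30 CPM on d10. Every mouse of an earlier day lay above every mouse of the next, and the declines from d3 to d7 (log2 change -3.00 ± 0.39 SE, adjusted p = 0.00375) and from d7 to d10 (-2.74 ± 0.47, adjusted p = 0.0216) passed the edgeR test. Cxcl2 measured 5.52, 4.73 and 7.95 CPM on d3 and 1.35, 0.836 and 0.629 CPM on d7, without overlap (-2.66 ± 0.43, adjusted p = 0.0121, called in 4 of 6 fits with 1 library left out and at 0.058 and 0.0576 without Lean d7 mouse 2 or mouse 3). These were 2 of the 8 members tested between Lean d3 and d7, where 1.67% of all genes were called and 0.352% were called lower. Cxcl1, Cxcl3 and Cxcl14 were also lower on d7 in every mouse, with log2 differences of -1.84, -2.73 and -1.43 and adjusted p of 0.095, 0.0983 and 0.0718, so that 5 of the 8 tested members did not overlap, against 24.5% of all genes. Cxcl5 was the 1 member called between Lean d7 and d10, where 2.73% of all genes were called and 1.65% were called lower, and leaving out any Lean d7 mouse or Lean d10 mouse 1 took the call away (adjusted p up to 0.0798, and 0.0544 with a log2 change of -2.37 without Lean d10 mouse 1, the library that stood apart). Cxcl2, Cxcl9, Cxcl10 and Cxcl16 were also lower on d10 in every mouse, which made 5 of 8 without overlap, against 28.3% of all genes.

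Over the 4 Lean days together, 7 of the 8 tested members differed, against 19% of all genes. Adjusted p was 0.000136 for Cxcl5, 0.000932 for Cxcl2, 0.00486 for Cxcl16, 0.0128 for Cxcl1, 0.0138 for Cxcl14, 0.0154 for Cxcl3 and 0.0409 for Cxcl10. Cxcl9 did not pass (adjusted p = 0.0695). With 1 library left out, the call of Cxcl10 was kept in 4 of 12 fits (adjusted p up to 0.0934) and lost without any mouse of Lean d5 or d7 and without Lean d10 mouse 2 or mouse 3, and those of Cxcl3 (0.0624) and Cxcl14 (0.0561) were lost without Lean d3 mouse 1. The median log2 change of the tested members was -1.64 from d3 to d7 and -1.11 from d7 to d10, beside 0.01 and -0.01 over all genes.

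In DIO callus Cxcl5 was high on d3 and, in 2 of 3 mice, again on d7. It measured 47.2, 62.3 and 32.2 CPM on d3, 12.4, 14.9 and 15.9 CPM on d5, and 71.6, 70.9 and 3.50 CPM on d7. The d7 mice thus fell on both sides of the d5 mice, 2 above the d3 range and 1 at the Lean d7 level. By d10 Cxcl5 was at 1.76, 2.60 and 0.070 CPM, on d14 at 2.04, 2.54 and 0.634 CPM and on d21 at 0.921, 0.352 and 1.14 CPM, and its log2 change after d7 was -5.04 ± 0.89 (adjusted p = 0.000985) without overlap. Between d3 and d7 of the DIO mice 0 members were called by edgeR, against 7.3% of all genes. At an unadjusted p under 0.05, 2 of the 8 tested members, Cxcl14 and Cxcl16, and 23.5% of all genes passed, DESeq2 called 2 members (10.2% of all genes), and Cxcl14 and Cxcl16 did not overlap between the days, where 27.2% of all genes did not.

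Cxcl1, Cxcl2 and Cxcl3 of the DIO mice were spread most on d7. Cxcl1 measured 8.35, 12.7 and 8.42 CPM on d3, 1.56, 4.12 and 5.47 CPM on d5, 14.4, 3.82 and 0.874 CPM on d7, and 0.077, 1.30 and 0.350 CPM on d10. Cxcl2 was at 4.02, 6.07 and 5.15 CPM on d3, 62.6, 1.40 and 0.538 CPM on d7, and 0.691, 1.08 and 0.560 CPM on d10. Cxcl3 went from 2.52, 4.43 and 2.73 CPM on d3 to 23.7, 0.588 and 0 CPM on d7, where mouse 3 at 0 counts has an upper limit of 0.202 CPM, and to 0.077, 0.361 and 0.140 CPM on d10. In each of these genes mouse 1 alone was above the d3 range on d7. From d7 to d10 all of them passed the test (log2 change -3.45 ± 0.86, -4.78 ± 1.44 and -5.34 ± 1.57, adjusted p = 0.0121, 0.0357 and 0.0311), although the days overlapped for each. Without DIO d7 mouse 1 the changes were -2.0, -0.30 and -0.55, with adjusted p of 0.117, 0.912 and 0.871.

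In total 7 of the 8 tested members were called between DIO d7 and d10, 6 lower and 1 higher, against 13% of all genes (7.01% lower and 6.01% higher). Without DIO d7 mouse 1, 3 were called: Cxcl5, Cxcl9 and Cxcl16. Leaving out DIO d10 mouse 1 or mouse 3 gave 4. The days did not overlap for 4 members, Cxcl5, Cxcl9, Cxcl14 and Cxcl16, where 27.1% of all genes did not. The median log2 change of the members was -2.37, and that of all genes was -0.02. Over the 6 DIO days together, 7 of 8 members differed, where 59.1% of all genes did, and Cxcl10 did not (adjusted p = 0.0933).

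Cxcl2 showed a second high library late in repair. On d21 of the DIO mice it measured 17.9, 1.23 and 0.518 CPM, after 0.825, 2.42 and 1.06 CPM on d14, so that mouse 1 lay above all other libraries of the series but DIO d7 mouse 1. The same callus held 1.27 CPM of Cxcl3, while the other d21 mice had 0 counts and upper limits of 0.176 and 0.155 CPM. Its Cxcl1 (0.403 CPM) and Cxcl5 (0.921 CPM) ranked 25 and 24 of 30 libraries. It held the highest summed neutrophil markers of its group (31065 CPM against 14688 and 17206 CPM). The NF-kB targets Nfkbia, Nfkbiz, Tnfaip3 and Zfp36 ranked 1, 3, 3 and 14 in it, and Il1b and Tnf ranked 10 and 14. The part of these in its Cxcl2 level was not tested. The log2 change of Cxcl2 from d10 to d21 was 3.05 ± 1.41 (adjusted p = 0.0882), and 0.12 without that library.

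DIO d7 mouse 1 was the highest of the 30 libraries for all of the neutrophil-attracting members. The next highest libraries reached 12.7 CPM for Cxcl1, 17.9 CPM for Cxcl2, 6.41 CPM for Cxcl3 and 70.9 CPM for Cxcl5. Genes of the cytokines upstream of NF-kB were looked up in it after its values were seen, and it was the highest library for Il1a, Il1b and Tnf too. Il1b measured 175 CPM in mouse 1 and 61.9 and 19.8 CPM in the other DIO d7 mice, Tnf 21.6 against 1.25 and 1.21 CPM, Il1a 8.31 against 0.221 and 0.672 CPM, and Csf3, the granulocyte growth factor, 3.46 against 0.221 and 0 CPM. Ptgs2, the inducible cyclooxygenase, did not follow this order, at 145 CPM in mouse 1, 199 CPM in mouse 2 and 74.2 CPM in mouse 3. Il6 ranked 5 of 30 in mouse 1 (2.83 CPM, against 4.19 CPM in mouse 2), and the NF-kB targets Nfkbiz, Nfkbia, Tnfaip3 and Zfp36 ranked 2, 7, 13 and 19. Cxcr2, the receptor carried by neutrophils, was at 46.1, 24.9 and 45.9 CPM, and the summed neutrophil markers were at 6612, 2949 and 12883 CPM, highest in mouse 3, whose Cxcl1, Cxcl2, Cxcl3 and Cxcl5 were lowest. The part of neutrophil content in these values was not tested.

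**Figure D2:**
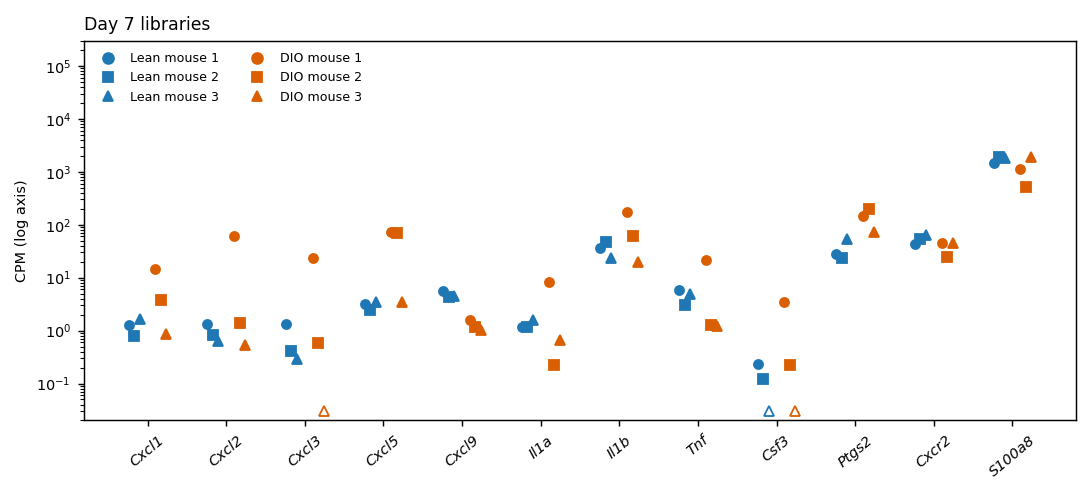
CPM on a log axis of neutrophil-attracting members, Cxcl9, cytokine genes, Ptgs2, Cxcr2 and S100a8 in the 6 libraries of d7, with a point per mouse. DIO mouse 1 is highest for Cxcl1, Cxcl2, Cxcl3, Il1a, Il1b, Tnf and Csf3, and Cxcl9 is lower in all 3 DIO mice (1.01 to 1.57 CPM) than in all 3 Lean mice (4.30 to 5.62 CPM).

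Diets were then compared within each day. On d7 the neutrophil-attracting Cxcl5 was higher and the interferon-induced Cxcl9 was lower in DIO than in Lean callus, and these were the 2 of 7 tested members called by edgeR and the 2 without overlap (22.1% of all genes had none), where 2.32% of all genes were called (1.4% higher and 0.92% lower in DIO). Cxcl5 was at 71.6, 70.9 and 3.50 CPM in DIO mice against 3.22, 2.45 and 3.49 CPM in Lean mice, a log2 difference of 4.0 ± 0.85 (16.01-fold, adjusted p = 0.0437). The lowest DIO mouse and the highest Lean mouse were separated by little, and leaving out 1 library gave log2 differences of 3.62 to 4.56 and adjusted p of 0.00012 to 0.181, past the threshold only when DIO mouse 3 was left out. Cxcl1 (log2 difference 2.37 ± 0.81, adjusted p = 0.172) and Cxcl2 (4.53 ± 1.45, adjusted p = 0.151) overlapped between the diets, and fell to 0.93 and 0.06 without DIO mouse 1. Cxcl3 did not pass the filter on low counts on d7 and was not tested there.

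On d3 Cxcl1 was higher in every DIO mouse (8.35, 12.7 and 8.42 CPM) than in every Lean mouse (5.58, 5.13 and 2.90 CPM), with a log2 difference of 1.13 ± 0.30 that did not pass with edgeR (adjusted p = 0.149). Cxcl5 was at 47.2, 62.3 and 32.2 CPM against 33.6, 21.5 and 19.6 CPM and overlapped (0.94 ± 0.28, adjusted p = 0.181). Cxcl2 and Cxcl3 had differences of -0.24 and -0.50 and did not pass either. On this day 0 members and 0 of 15772 genes were called by edgeR (0%), while 2 of the 8 tested members, Cxcl1 and Cxcl5, and 15.1% of all genes had an unadjusted p under 0.05, and DESeq2 called Cxcl1 and Cxcl5 (adjusted p = 0.0138 and 0.0319), where it called 4.62% of all genes. Cxcl1 was the 1 tested member without overlap, against 20.8% of all genes. Markers of neutrophils, the target cells of these chemokines, went the other way: summed over the 12 marker genes they were at 12924 to 27947 CPM in Lean mice and 2685 to 4470 CPM in DIO mice, without overlap, and all 12 were lower in DIO with a median log2 difference of -2.39, though 0 passed adjustment with edgeR (Mmp8 -2.80 ± 0.40, adjusted p = 0.0787), while all 12 had an unadjusted p under 0.05 and DESeq2 called 10. The part of neutrophil content in the chemokine levels was not tested.

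On d5 the neutrophil-attracting members did not differ beyond their spread. Log2 differences of DIO to Lean were 0.67 for Cxcl1, -0.36 for Cxcl2, 0.80 for Cxcl3 and 0.44 for Cxcl5, with adjusted p of 0.365 to 0.713. The Lean mice were at 4.06, 1.37 and 1.57 CPM of Cxcl1 and the DIO mice at 1.56, 4.12 and 5.47 CPM. On d10 Cxcl5 was at 0.188, 0.872 and 0.30 CPM in Lean and 1.76, 2.60 and 0.070 CPM in DIO mice (1.71 ± 1.00, adjusted p = 0.698), and Cxcl1, Cxcl2 and Cxcl3 were too low to pass the filter.

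**Figure D3:**
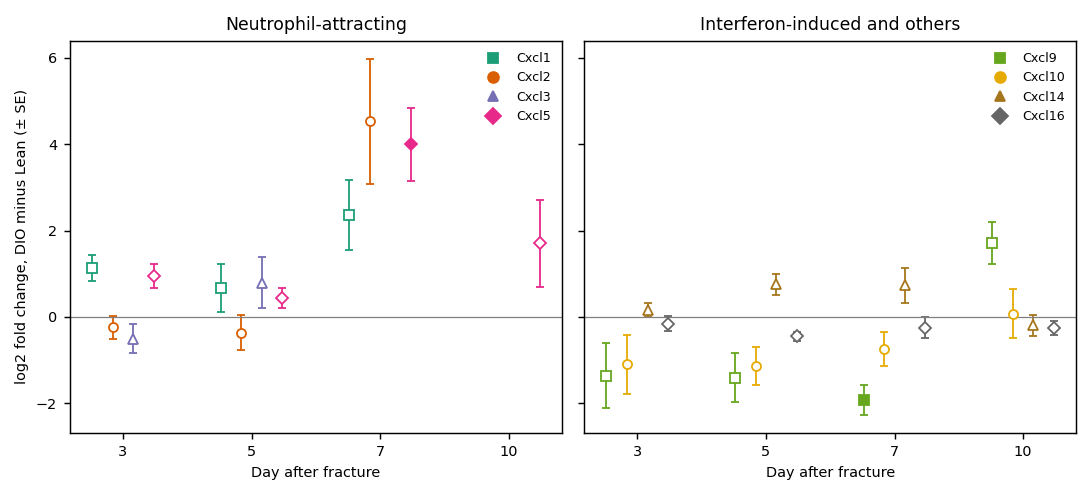
Log2 difference of DIO to Lean callus for the tested members on d3, d5, d7 and d10, with bars of 1 SE and filled symbols for an adjusted p under 0.05 in edgeR. The only filled symbols are Cxcl5 (4.0) and Cxcl9 (-1.91) on d7, and Cxcl9 lies below 0 until d7 and at 1.72 on d10.

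The interferon-induced Cxcl9 had its highest mean on d5 in Lean mice, and its highest means from d10 on in DIO mice. In Lean mice it measured 1.13, 2.55 and 6.30 CPM on d3, 12.1, 7.41 and 9.01 CPM on d5, 5.62, 4.30 and 4.46 CPM on d7 and 1.82, 3.35 and 3.90 CPM on d10, so that every d5 mouse lay above every mouse of the other Lean days. In DIO mice it was at 0.841, 0.451 and 2.66 CPM on d3, 1.07, 6.81 and 2.99 CPM on d5 and 1.57, 1.18 and 1.01 CPM on d7. It then rose to 15.7, 9.59 and 4.34 CPM on d10, a log2 change of 2.97 ± 0.62 from d7 (7.82-fold, adjusted p = 0.0039), and stayed in that range at 9.41, 9.32 and 10.6 CPM on d14 and 12.3, 13.04 and 12.4 CPM on d21. Ordered by mean, DIO d21, d10 and d14 and Lean d5 each overlapped their neighbour at the top, and Lean d5 lay apart from Lean d7, which came next, while the lowest DIO d10 mouse (4.34 CPM) fell within the Lean d7 range.

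Between diets, Cxcl9 was lower in every DIO mouse on d5 and d7 and higher in every DIO mouse on d10. The log2 differences were -1.36 ± 0.75 on d3 (adjusted p = 0.436), -1.40 ± 0.56 on d5 (adjusted p = 0.239), -1.91 ± 0.35 on d7 (3.77-fold lower, adjusted p = 0.0273) and 1.72 ± 0.49 on d10 (adjusted p = 0.686). When 1 library was left out, the d7 difference stayed between -1.77 and -2.11 and its adjusted p ran from 0.0354 to 0.123, under the threshold without DIO mouse 1 or mouse 3. The diet difference of Cxcl9 over the 4 days did not pass (adjusted p = 0.0886), and 0 of 8 members did with edgeR, where 1.65% of all genes were called. At an unadjusted p under 0.05, 3 members, Cxcl2, Cxcl5 and Cxcl9, and 18.4% of all genes passed, and DESeq2 called Cxcl2 and Cxcl9 (6.75% of all genes). A test of the change from d7 to d10 alone, chosen after the values were seen, gave 3.63 ± 0.93 for Cxcl9 (adjusted p = 0.0283, between 0.0236 and 0.0905 without 1 library), where 5.07% of all genes were called, and it passed for no other member. Without Lean d10 mouse 1, the library that stood apart, the d10 difference of Cxcl9 was 1.44 (adjusted p = 0.318) and the change from d7 was 3.37 (adjusted p = 0.0905), past the threshold no longer. The change was called in 7 of 12 fits with 1 library left out, and the call was also lost without Lean d7 mouse 1 or mouse 2, DIO d7 mouse 2 or DIO d10 mouse 1.

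On d5, 0 members were called by edgeR against 1.08% of all genes, and 4 of the 8 tested had an unadjusted p under 0.05, Cxcl9, Cxcl10, Cxcl14 and Cxcl16, against 18.5% of all genes. DESeq2 called Cxcl14 and Cxcl16 (7.31% of all genes), and 3, Cxcl9, Cxcl10 and Cxcl16, were lower in DIO without overlap, against 23.2% of all genes. On d10, 0 of 5 tested members and 0 of 15341 genes were called (0%), 1 member, Cxcl9, and 7.05% of all genes had an unadjusted p under 0.05, and DESeq2 called 0 members (0.306% of all genes). Cxcl9 and Cxcl16 were the 2 without overlap, against 14.2% of all genes.

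Cxcl10, a close neighbour of Cxcl9 on the chromosome, had its highest means on d3 and d5 and passed in no comparison of a pair of days. It measured 4.87, 6.20 and 25.2 CPM on Lean d3, 8.71, 8.13 and 11 CPM on d5, 5.04, 5.43 and 3.55 CPM on d7 and 3.26, 1.94 and 0.841 CPM on d10. Lean d3 mouse 3 had the highest level of the series. In DIO mice it was at 7.63, 2.05 and 7.39 CPM on d3, 1.56, 5.08 and 6.14 CPM on d5, 2.77, 4.05 and 1.48 CPM on d7 and 2.69, 2.52 and 1.12 CPM on d10, and its means on d14 and d21 were 2.94 ± 0.735 and 1.97 ± 0.318 CPM (SD, n = 3). It was lower in every DIO than in every Lean mouse on d5 (-1.13 ± 0.44, adjusted p = 0.229) and changed by -0.39 from DIO d7 to d10 (adjusted p = 0.713), where Cxcl9 rose. Cxcl10 shares 133 exon bases, 5.91% of its exons, with Art3 on the opposite strand, and the strand setting of the counting is not given in the sources used here.

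The receptor of both, Cxcr3, was the 1 CXC receptor of 7 tested that was called between diets on d5. It measured 3.82, 3.65 and 2.42 CPM in Lean and 0.982, 0.777 and 0.789 CPM in DIO mice, without overlap (-1.94 ± 0.33, adjusted p = 0.0458). The markers of T and NK cells, which carry it, were summed to 31.4 to 43.5 CPM in Lean and 12 to 13.4 CPM in DIO mice on d5, and 2 of 6 tested were called lower (Cd4 and Cd8a), where 0.948% of all genes were. On d7 the sums were 25.8 to 31.5 CPM and 9.93 to 24.2 CPM. In DIO mice they went on to 25.3 to 34.8 CPM on d10, 41.4 to 50.3 CPM on d14 and 41.5 to 48.6 CPM on d21, with 3 of 9 called higher between d7 and d10 (6.01% of all genes). Whether these cells took part in the course of Cxcl9 was not tested.

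Genes of the interferon pathway were read beside Cxcl9 and Cxcl10. Of 14 listed, 12 were tested on d5, all 12 were lower in DIO and 8 passed, with a median log2 difference of -0.88 where all genes had 0.01 and 0.948% of all genes were called lower. Among them were Irf9 (-0.87, adjusted p = 0.0297) and Stat2 (-0.89, adjusted p = 0.0347), transcription factors downstream of type I interferon, and the induced gene Ifit1 (-1.88 ± 0.30, adjusted p = 0.0432). On d7 again 12 of 12 were lower, at a median of -0.70, and 1 passed (Irf9, -0.77, adjusted p = 0.0483), where 0.92% of all genes were called lower. On d10, 10 of 12 were higher in DIO, 0 passed with edgeR or DESeq2 and 1 had an unadjusted p under 0.05 (7.05% of all genes). From DIO d7 to d10 Irf1 (0.60, adjusted p = 0.0144) and Ifngr1 (0.57, adjusted p = 0.0388) rose, where 6.01% of all genes were called higher. The genes of the interferons themselves were near the limit of detection, Ifng at no more than 0.597 CPM and Ifnb1 at no more than 0.10 CPM in any library.

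Macrophages make Cxcl9, Cxcl10 and Cxcl16, and their markers were lower in DIO callus on d7. All 11 marker genes had a negative difference and 3 passed, where 0.92% of all genes were called lower: Mrc1 (-1.02, adjusted p = 0.0195), Cd68 (-0.96, adjusted p = 0.0273) and Csf1r (-1.02, adjusted p = 0.0273). Their sums were 3600 to 5142 CPM in Lean and 2462 to 2951 CPM in DIO mice. On d10 the DIO sums were 3164 to 3315 CPM, while Cxcl9 was 4.34 to 15.7 CPM. The part of these cells in the chemokine differences was not tested.

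NF-kB-linked cytokine genes were read beside the neutrophil-attracting members. Of 11 listed, 9 were tested between diets on d7 and 1 passed, where 2.32% of all genes were called and 1.4% were called higher in DIO. This was Ptgs2, higher in DIO (144.7, 198.6 and 74.2 against 27.6, 23.1 and 53.03 CPM, 2.02 ± 0.39, adjusted p = 0.0327). Il1b differed by 1.29 ± 0.60 (adjusted p = 0.324). From DIO d7 to d10, 4 fell, where 7.01% of all genes did: Ptgs2 (-3.02), Il1b (-2.52, adjusted p = 0.00458), Tnf (-2.81, adjusted p = 0.0335) and Nfkbiz (-0.83). Tnf was at 1.23, 1.30 and 0.910 CPM on d10, so that of the d7 mice only mouse 1 lay above that range. Without DIO d7 mouse 1, chosen after the values were seen, the change of Tnf was -0.10 (adjusted p = 0.933), and those of Ptgs2, Il1b and Nfkbiz were -2.99, -1.46 and -0.71 (adjusted p = 0.00102, 0.039 and 0.0342). In that fit Tnfaip3 went the other way and passed (0.94, adjusted p = 0.0206). Nfkbia (0.73, adjusted p = 0.0682) and Il1a (1.07, adjusted p = 0.415) were higher without passing. Il6 (-2.10, adjusted p = 0.112) and Zfp36 (-0.38, adjusted p = 0.247) were lower without passing.

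**Figure D4:**
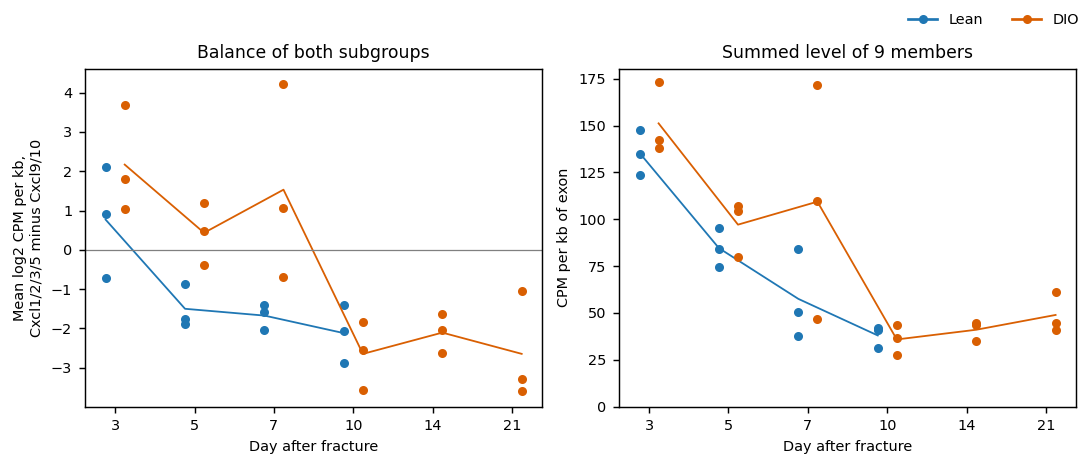
Left, mean log2 CPM per kilobase of Cxcl1, Cxcl2, Cxcl3 and Cxcl5 minus that of Cxcl9 and Cxcl10 in each library by day; right, summed CPM per kilobase of the 9 members. The balance fell in both diets to means of -2.12 (Lean) and -2.65 (DIO) on d10, and on d5 and d7 every DIO mouse lay above every Lean mouse.

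The balance between the 2 inducible groups was taken per library as the mean log2 CPM per kilobase of Cxcl1, Cxcl2, Cxcl3 and Cxcl5 minus that of Cxcl9 and Cxcl10. In Lean mice it had means of 0.77 ± 1.41, -1.5 ± 0.56, -1.67 ± 0.33 and -2.12 ± 0.74 from d3 to d10 (SD, n = 3). In DIO mice it was 2.17 ± 1.37, 0.43 ± 0.79, 1.53 ± 2.48 and -2.65 ± 0.87 on the same days, and -2.11 ± 0.50 and -2.65 ± 1.38 on d14 and d21. The diets did not overlap on d5 (-1.89 to -0.86 in Lean, -0.39 to 1.20 in DIO) and d7 (-2.04 to -1.40 in Lean, and 4.22, 1.06 and -0.68 in DIO mice 1, 2 and 3). These are descriptions of chosen members and carry no test. Summed over the 9 members, the level per kilobase was 135 ± 12.1 in Lean and 151 ± 19.04 in DIO mice on d3 and 37.9 ± 6.03 and 35.8 ± 8.01 on d10, with 57.5 ± 24.2 and 109 ± 62.5 on d7. Neutrophil-attracting members made up 48.5%, 37.2% and 5.59% of the sum in the 3 DIO d7 mice.

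Cxcl14, the most abundant member, was highest on d3 in both diets. It measured 163, 138 and 127 CPM on Lean d3, 66.1, 71.8 and 48.3 CPM on d5, 84.6, 44.1 and 26.4 CPM on d7 and 48.1, 27.1 and 44.5 CPM on d10. In DIO mice it was at 131, 187 and 156 CPM on d3, 133, 69.95 and 110 CPM on d5, 122, 80.7 and 52.3 CPM on d7 and 41.4, 34.9 and 27.7 CPM on d10. The DIO decline from d7 to d10 passed (-1.29 ± 0.31, adjusted p = 0.00966, 0.0622 without DIO d7 mouse 1), and d21 was above d10 in every mouse at 41.6, 86.0 and 49.8 CPM (0.77 ± 0.31, adjusted p = 0.0523). Between diets Cxcl14 differed by 0.16, 0.76, 0.73 and -0.19 on the 4 days and did not pass.

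Cxcl16 was lower late than early in both diets. It was at 92.2, 80.3 and 105 CPM on Lean d3, 116, 96.998 and 99.7 CPM on d5, 90.9, 60.8 and 50.8 CPM on d7 and 39.98, 39.98 and 39.88 CPM on d10. In DIO mice it was at 103, 74.8 and 69.7 CPM on d3, 73.8, 76.6 and 79.4 CPM on d5, 59.4, 66.9 and 43.2 CPM on d7, 38.8, 31.6 and 29.4 CPM on d10, 27.8, 30.3 and 23.3 CPM on d14 and 22.5, 23.1 and 22.5 CPM on d21. The changes from DIO d7 to d10 (-0.76 ± 0.18, adjusted p = 0.00749) and from d10 to d21 (-0.55 ± 0.18, adjusted p = 0.0182, 0.0856 without DIO d10 mouse 1) passed, and the latter was the 1 of 8 members called there, where 43.4% of all genes were called. Cxcl14 and Cxcl16 were the 2 without overlap there, against 49.9% of all genes. Every DIO mouse was below every Lean mouse on d5 (-0.44 ± 0.11, adjusted p = 0.0923) and d10 (-0.25, adjusted p = 0.712). By RT-qPCR, another measure of RNA, the authors reported the opposite on d5. There Cxcl16 was significantly higher in DIO than in Lean callus, with no such increase at later times. Adam10 and Adam17, which release the protein, did not pass between diets on any day with either tool (1 unadjusted p under 0.05, Adam10 on d3). Cxcl16 shares 552 exon bases, 18.3% of its exons, with Zmynd15 on the opposite strand, whose counts over all libraries were 4760 against 32532 of Cxcl16.

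Cxcl13 had at most 10 counts in a library and up to 0.601 CPM, and was at 0 in 7 libraries, so it was not tested in any comparison. Its receptor Cxcr5, on B cells, was called higher on DIO d10 than d7 (1.71) and again on d21 (1.60), with 8.87, 5.46 and 14.3 CPM on d21. B cell markers were called higher in 6 of 7 genes between DIO d7 and d10 and in 7 of 7 between d10 and d21, where 6.01% and 21.7% of all genes were called higher.

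**Figure D5:**
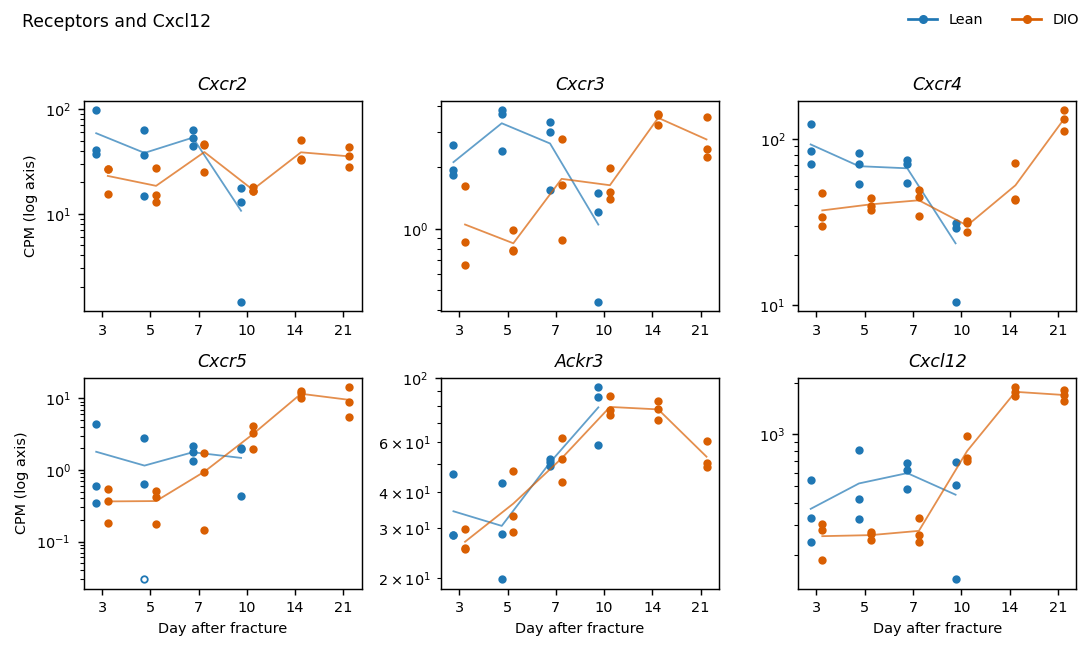
CPM on a log axis of Cxcr2, Cxcr3, Cxcr4, Cxcr5, Ackr3 and Cxcl12 by day, with a point per mouse and lines through the means of Lean and of DIO mice. Cxcr3 on d5 is below 1 CPM in the 3 DIO mice and above 2.4 CPM in the 3 Lean mice, and Cxcl12 of DIO mice is higher on d10, d14 and d21 than on d3 to d7.

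Of the other CXC ligands, Cxcl12, the stromal ligand of CXCR4 that holds leukocyte precursors in marrow, was lower in DIO callus on d7. It measured 484.6, 685.0 and 619.8 CPM in Lean and 260.3, 239.0 and 327.7 CPM in DIO mice (-1.10 ± 0.21, adjusted p = 0.0289), without overlap. Every DIO mouse was also lower on d5 (-0.99, adjusted p = 0.15) and higher on d10 (0.86, adjusted p = 0.688). Lean d10 mouse 1, the library that stood apart, was at 145 CPM. The change of this diet difference from d7 to d10, the test chosen after the values were seen, passed with edgeR (1.96 ± 0.56, adjusted p = 0.0467), where 5.07% of all genes were called. Whether it passes without Lean d10 mouse 1 was not examined. Within DIO mice Cxcl12 rose from d7 to d10 (1.54, adjusted p = 7.07e-05) and from d10 to d21 (1.08). Pf4, the platelet chemokine, was lower on DIO d5 (-0.84 ± 0.11, adjusted p = 0.0343). Ppbp lies between Cxcl5 and Cxcl3 on chromosome 5. Its DIO means were below the Lean means on d3 (85.8 against 227 CPM), d5 (22.8 against 84.2 CPM) and d7 (54.7 against 100 CPM). On d10 the DIO mean was above (60.1 against 26.3 CPM). Its log2 differences were -1.39, -1.88, -0.86 and 1.20, with edgeR adjusted p of 0.347, 0.2, 0.487 and 0.756, and the diets overlapped on each day. The receptor Cxcr4 was at 32.1, 31.1 and 27.5 CPM on DIO d10 and 148.8, 111.6 and 132.4 CPM on d21 (2.11, adjusted p = 4.02e-06), and Cxcr2 fell from DIO d7 to d10 (-1.20) and rose to d21 (1.06). On d3, 7 of the 8 receptors were lower in DIO callus and 0 passed with edgeR, 5 had an unadjusted p under 0.05 (15.1% of all genes), and DESeq2 called 2 (4.62% of all genes).

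The genes most alike to each member in log2 CPM over the 30 libraries were named by Pearson's r among 14808 genes, as a description of libraries that share days and diets. Cxcl1 was most like Cxcl5 (r = 0.90), Il33 (0.89) and Arg1 (0.87), and Cxcl5 was most like Cxcl1 (0.90), Il6 (0.90) and Arg1 (0.89). Cxcl2 was most like Slc7a11 (0.86), Cd14 (0.85) and Acod1 (0.85), and Cxcl3 most like Cxcl2 (0.84), Cxcl1 (0.81) and Arg1 (0.79). Cxcl2 and Cxcl3 hold a stretch of 116 bases at 98.3% identity, over which reads of both genes may not be told apart. Cxcl9 was most like Ifi208 (0.85), Iigp1 (0.83) and Ccl5 (0.83), Cxcl10 most like Oas1g (0.83), Ifi211 (0.80) and Fcgr1 (0.79), so the pair had no leading gene in common. Cxcl14 was most like Il4ra, Atic and Saa3 (each 0.85), and Cxcl16 most like Ms4a6d, Zmynd15 and Arl4c (each 0.94), of which Zmynd15 is the overlapping gene.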

How the data were processed

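Poly(A) RNA of 30 fracture calli was sequenced. The authors demultiplexed reads with bcl2fastq, trimmed them with BBDuk, aligned them to GRCm38 with HISAT2 2.1.0 and deposited raw HTSeq counts per gene, without normalization. The HTSeq version, strand option and annotation are not given in the sources used here. Gene names and positions came from GENCODE M21, by identifier (42462 of 43629 matched), and promoters from RefSeq.

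Tests used edgeR 4.0.16 in R 4.3.3 (glmQLFit and glmQLFTest, two-sided), with TMM factors, filterByExpr and Benjamini-Hochberg adjustment over all genes that passed the filter (threshold 0.05), within each day for diets and in 1 fit per diet for days. The fit was tested on simulated data with the same spread for all genes, a setting that does not cover genes that vary more between mice. Members that failed the filter were Cxcl13 everywhere, Cxcl3 on d7 and d10 and Cxcl1 and Cxcl2 on d10 between diets. Log2 CPM used a prior count of 2. DESeq2 1.42.0, RLE factors, no filter, a replicate block, all 30 libraries in 1 fit and leaving out each library were alternatives. No pair of libraries of a group was alike within sampling noise (chi-square per degree of freedom 12.8 to 148). P-values measure the spread between mice. Members and gene lists were chosen with earlier results of these data known. All 9 members are named. Of each other list at most 4 genes are named by adjusted p or listed order, but more of the NF-kB-linked list. For each member 3 most-alike genes with a mean of at least 1 CPM are named.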

Additional observations from a re-analysis of the deposited data

Results flagged for a closer look

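Cxcl9 was set aside for a closer look because its diet difference took opposite directions on different days. Every DIO mouse was below every Lean mouse on d5 (log2 difference -1.40) and d7 (-1.91), and every DIO mouse was above every Lean mouse on d10 (1.72). The change of the difference from d7 to d10, a test chosen after the values were seen, had an adjusted p of 0.0283 with edgeR, 0.0905 without Lean d10 mouse 1, and was called in 7 of 12 fits with 1 library left out. The change from d5 to d10 was not tested on its own. Cxcl12, a ligand that is not a member, took the same directions as Cxcl9 on d5, d7 and d10.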

How the results depend on the processing

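No member changed direction past its test under any alternative. Of the tests of single members under other settings, 203 kept their side of the threshold, 37 newly passed and 11 no longer passed, and with 1 library left out these counts were 443, 10 and 45. The number of members called moved by over 1.5 times as follows. DESeq2 called 2 between diets on d3, 2 on d5 and 2 for the change over days, 5 between Lean d3 and d7, 2 between Lean d7 and d10, 2 between DIO d3 and d7 and 2 between DIO d10 and d21. With every gene of at least 1 count tested, these were 2 on d3, 4 on d7, 3 for the change over days, 1 between DIO d3 and d7 and 3 between DIO d10 and d21. RLE factors gave 2 between DIO d10 and d21, and 1 fit of all 30 libraries gave 2 there and 1 for the change over days, as did the test of d7 to d10 alone with 1. With a replicate block, 1 member was called between diets on d7 (Cxcl9, adjusted p = 0.0425; Cxcl5 0.0707), 4 between Lean d3 and d7, 2 between Lean d7 and d10 and 2 between DIO d10 and d21. The replicate numbers mark different mice, so that the block was not used as a pairing. Deviations of same-number pairs from their group means had correlations of -0.15 to 0.02 between diets on d7. Between Lean d7 and d10 these correlations were all positive, at 0.039 to 0.23 with a mean of 0.115. Other pairs had a mean of -0.056 there.

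The counts over all genes moved with the tool. Between diets on d3, d5, d7 and d10 edgeR called 0, 170, 366 and 0 genes, DESeq2 728, 1150, 944 and 47, and edgeR without the filter 515, 565, 724 and 29. A replicate block gave 325 on d3 and 0 on d5, and all 30 libraries in 1 fit gave 63 on d5, 675 on d7 and 3 on d10. For the change over days the counts were 282, 1151 with DESeq2 and 503 without the filter, and for d7 to d10 alone 865 and 1496 with DESeq2. Over all Lean days DESeq2 called 4848 against 3132, between Lean d3 and d7 840 against 275 (451 with the block, 523 in 1 fit) and between Lean d7 and d10 1827 against 450 (1479 with the block, 1529 in 1 fit).

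With 1 library left out, the members called between diets ranged from 0 to 0 on d3, d5 and d10, from 0 to 4 on d7 and from 0 to 2 for the change over days. They ranged from 5 to 8 over all Lean days, from 1 to 3 between Lean d3 and d7 and from 0 to 1 between Lean d7 and d10. In DIO mice they ranged from 6 to 8 over all days, from 0 to 1 between d3 and d7, from 3 to 7 between d7 and d10 and from 0 to 2 between d10 and d21. The d7 count was 0 without any Lean mouse or DIO mouse 2, 1 without DIO mouse 1 and 4 without DIO mouse 3. The change over days was 1 without DIO d3 mouse 3 and 2 without DIO d7 mouse 3. Between DIO d10 and d21 it was 0 without DIO d10 mouse 1 and 2 without DIO d21 mouse 1. Causes were not tested. CPM from plain library totals moved the level of Cxcl16 on Lean d10 (35.2 CPM) and DIO d21 (23.4 CPM) beyond its spread. Cxcl13, and the other members on days when they fell under the limit of 3 counts, were limited by depth.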
